A study of Mus musculus with 12 samples.

Results

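A set of 10 genes of the corticosteroid system was followed in the mouse hypothalamus: the glucocorticoid receptor Nr3c1, the mineralocorticoid receptor Nr3c2, the receptor cochaperones Fkbp4 and Fkbp5, the hormone-responsive genes Sgk1, Tsc22d3, Hif3a, Zbtb16 and Cdkn1a, and the releasing hormone Crh. They were taken by name, 10 of the 24020 genes of the count table, and all 10 were found in it. Every mouse came from the Wfs1 mutant strain Wfs1tm1Koks. The groups were 4 wild-type mice with 0 mutant copies of Wfs1, 4 heterozygous mice with 1 and 4 homozygous mice with 2, each with its own library of whole hypothalamus. Wolframin, the product of Wfs1, sits in the membrane of the endoplasmic reticulum. The labels name no treatment, age or sex for these mice, and no driver that would limit the mutation to a cell type. Because whole tissue was sequenced, fewer cells of a type and less RNA per cell cannot be told apart.

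Corticosterone, the main glucocorticoid of the mouse, enters cells and binds 2 related nuclear receptors. The mineralocorticoid receptor binds it tightly, and the glucocorticoid receptor is filled mainly when the hormone is high. The unbound receptors rest in complexes of HSP90, p23 and immunophilins, among which FKBP52 (the product of Fkbp4) favours hormone binding and transport to the nucleus, while FKBP51 (the product of Fkbp5) holds the receptor in a state of low affinity. Bound receptors act on response elements near genes such as Sgk1, Fkbp5 and Tsc22d3. In the hypothalamus they take part in the negative feedback on Crh, the peptide of the paraventricular nucleus that starts the hormonal stress response.

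RefSeq promoter windows of build GRCm38.p6, each running from 250 bases before to 50 bases after a start site, were held for 7 of the 10 members in 15 entries. Nr3c1, Zbtb16 and Crh had no entry. The glucocorticoid response element was searched on both strands as the palindrome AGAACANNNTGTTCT, which was in 3 of 32851 windows (0.00913%), as the shorter form GNACANNNTGTNC in 156 (0.475%), and as the single arm TGTTCT in 6233 (19.0%). The arm lies within the palindrome, and the shorter form overlaps it. Among the members the palindrome was found in 1 window of Sgk1, 189 bases before that start site. The 250 bases upstream of it, chr10:21993640-21993889 on the plus strand, are shown because this is the only member window with the palindrome; capitals mark the palindrome and a separate arm.

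Sgk1 upstream: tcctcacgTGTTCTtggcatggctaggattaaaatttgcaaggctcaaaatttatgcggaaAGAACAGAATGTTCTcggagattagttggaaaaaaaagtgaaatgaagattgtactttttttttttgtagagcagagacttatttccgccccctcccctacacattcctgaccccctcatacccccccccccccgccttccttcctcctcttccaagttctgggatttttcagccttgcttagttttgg

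The single arm was also in 2 other Sgk1 windows and in 1 of Tsc22d3, 185 bases before its start. The windows of Fkbp4, Fkbp5, Nr3c2, Hif3a and Cdkn1a held none of these 3 sequences. Elements of these genes that lie outside 300 bases were not searched.

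Libraries held 979394 to 2330872 counts. Levels are CPM, a gene's counts relative to the library total after scaling with TMM factors, which correct for library composition, and 3 counts correspond to between 1.25 and 3.39 CPM. Wfs1 was at 114 to 167 CPM in wild-type, 81.8 to 103 in heterozygous and 14.8 to 20.1 in homozygous libraries, so each library matched its label. Of 14 markers of hypothalamic neurons none was at 0, with summed levels of 1006 to 1430 CPM in wild-type and 1073 to 1447 CPM in homozygous libraries, while 10 markers of telencephalon summed to 116 to 131 and 89.8 to 107 CPM. The 8 markers of thalamus summed to 631 to 823 CPM in wild-type and 822 to 1149 CPM in homozygous libraries. The libraries also differed by genotype in base composition. Across genes, the correlation between a library's deviation in log2 CPM and the GC share of the transcript was 0.0465 to 0.460 in wild-type, −0.0294 to 0.438 in heterozygous and −0.520 to 0.0390 in homozygous libraries, lowest in homozygous replicates 4 and 5. Rn45s, the precursor of ribosomal RNA, was at 958 to 1983 CPM in wild-type, 352 to 788 in heterozygous and 85.8 to 352 in homozygous libraries, again lowest in those replicates.

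Among the 9 members that passed the filter on low counts, 6 differed between homozygous and wild-type mice, 3 higher and 3 lower. A difference was called at an adjusted p under 0.05 (edgeR quasi-likelihood F test, Benjamini-Hochberg over 10737 genes). Of all genes tested, 25.4% were called, 13.7% higher and 11.6% lower. With library totals in place of TMM factors 4 members were called, 1 higher and 3 lower, beside 919 higher and 2199 lower of all genes. With limma-voom 4 members were called, 2 higher and 2 lower, beside 1276 higher and 1005 lower of all genes. Both receptors and Fkbp4 fell. Hif3a, Zbtb16 and Tsc22d3 rose, and Sgk1, Cdkn1a and Fkbp5 were not called. Crh was too low to be tested. The median log2 fold change of the 9 was 0.38, against −0.027 for all genes.

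**Figure D1:**
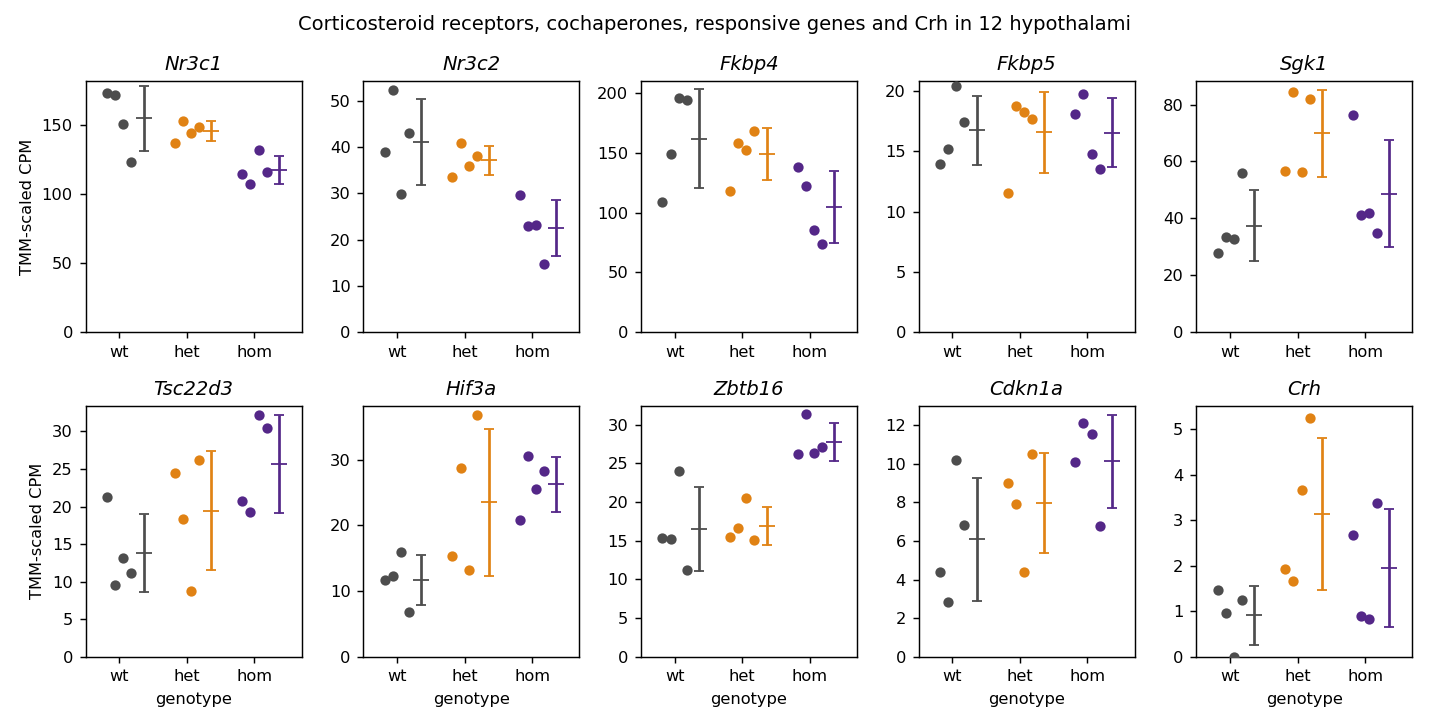
TMM-scaled CPM of the 10 members (vertical axes, from 0) in wild-type (wt), heterozygous (het) and homozygous (hom) mice, 1 point per library, with the mean and SD (n = 4) beside the points. Homozygous points of Hif3a and Zbtb16 lie above all wild-type points, those of Nr3c2 lie below them, and heterozygous points of Sgk1 lie above all wild-type points. Such ranges were found for 11.8%, 11.8% and 4.77% of all genes tested, in that order.

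The glucocorticoid receptor gene Nr3c1 (chromosome 18, 39410545 to 39519421, minus strand, mm10) was at 174, 172, 151 and 124 CPM in wild-type replicates 1, 2, 3 and 5. It was at 137, 153, 144 and 149 CPM in heterozygous replicates 1 to 4, and at 115, 107, 132 and 116 CPM in homozygous replicates 1, 2, 4 and 5. The levels of 3 of the 4 wild-type libraries were above every homozygous library, and wild-type replicate 5 lay within the homozygous range. All 4 heterozygous libraries lay above the homozygous ones, as for 4.48% of all genes tested. Group means were 155 ± 23.4, 146 ± 7.08 and 118 ± 10.3 CPM (SD, n = 4 each), a fall of 1.32-fold from wild-type to homozygous mice (log2 fold change −0.40, SE 0.132, adjusted p = 0.0285). The call ended without any 1 of wild-type replicates 1, 2 and 3 or homozygous replicates 1, 2 and 5 (log2 −0.40 to −0.33, adjusted p = 0.0505 to 0.0962). It also ended with no filter (−0.38, adjusted p = 0.0661), with only the 2 genotypes fitted (−0.40, 0.0599), in limma-voom (−0.37, 0.0623) and with the GC correlation of each library as a covariate (−0.53, 0.0785).

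The mineralocorticoid receptor gene Nr3c2 (chromosome 8, 76899442 to 77245012, plus strand) changed more. It was at 38.9, 52.3, 29.9 and 42.9 CPM in wild-type libraries, 33.4, 40.9, 35.9 and 38.1 CPM in heterozygous libraries and 29.5, 22.9, 23.1 and 14.7 CPM in homozygous libraries, in the same order of replicates. Every homozygous library was below every wild-type and heterozygous library, with homozygous replicate 1 just under wild-type replicate 3. Ranges that did not overlap in this direction were found for 11.8% of all genes tested against wild-type and 4.48% against heterozygous libraries. The fall was 1.76-fold, from 41.0 ± 9.31 to 22.5 ± 6.08 CPM (SD, n = 4; log2 −0.82, SE 0.212, adjusted p = 0.0070). It stayed called without any single library (−0.96 to −0.68), and ended without homozygous replicates 4 and 5 (−0.65, adjusted p = 0.0602) and with the GC correlation as a covariate (−0.64, 0.231).

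Fkbp4, which encodes the cochaperone FKBP52 (chromosome 6, 128429735 to 128438677, minus strand), was at 109, 149, 196 and 194 CPM in wild-type, 118, 158, 152 and 168 CPM in heterozygous and 138, 122, 85.7 and 73.4 CPM in homozygous libraries. Homozygous replicates 4 and 5 were below all others, and replicates 1 and 2 lay within the wild-type range. The fall was 1.52-fold, from 162 ± 41.6 to 105 ± 30.4 CPM (SD, n = 4; log2 −0.61, SE 0.191, adjusted p = 0.0219). It is the member of highest GC share, 55.5% of its transcript bases. Cdkn1a (54.4%) and Zbtb16 (53.6%) were close to it in GC share and had positive changes (0.74 and 0.77). The libraries of lowest GC correlation were those of the lowest Fkbp4 values. The part of base composition in the fall of Fkbp4 was not tested beyond the fits given here. With a GC offset for each library the change was −0.30 (adjusted p = 0.154), with the GC correlation as a covariate 0.021 (0.974), and without homozygous replicates 4 and 5 −0.32 (0.241). The call also ended without wild-type replicate 3 (−0.50, 0.0995), wild-type replicate 5 (−0.50, 0.0857), homozygous replicate 4 (−0.51, 0.0725) or homozygous replicate 5 (−0.48, 0.0697).

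Fkbp5, which encodes FKBP51 and is a widely used readout of glucocorticoid receptor activity (chromosome 17, 28399094 to 28517527, minus strand), gave no call. It was at 13.9, 15.2, 20.4 and 17.4 CPM in wild-type, 11.6, 18.8, 18.3 and 17.7 CPM in heterozygous and 18.1, 19.8, 14.8 and 13.5 CPM in homozygous libraries. The 3 groups overlapped almost fully, at means of 16.7 ± 2.83, 16.6 ± 3.38 and 16.6 ± 2.87 CPM (SD, n = 4 each). Between homozygous and wild-type mice the log2 fold change was 0.016 (SE 0.243, adjusted p = 0.968), with an interval of 2 SE from −0.47 to 0.50. With 12 to 45 counts per library, changes within that interval were not detectable at this depth.

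**Figure D2:**
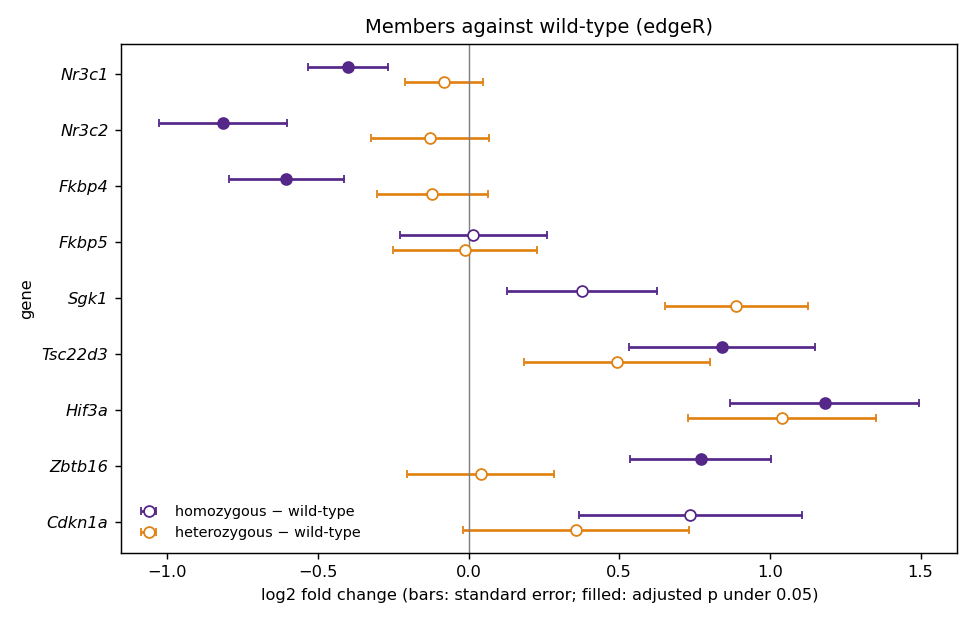
Log2 fold change (horizontal axis) of the 9 tested members against wild-type in homozygous and heterozygous mice, with bars of 1 SE; filled points have an adjusted p under 0.05 in edgeR. Filled points run from −0.82 for Nr3c2 to 1.18 for Hif3a, and all heterozygous points are open.

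Among the responsive genes Hif3a rose most. It encodes a hypoxia-inducible factor subunit whose transcript is raised by glucocorticoids in several tissues (chromosome 7, 17031507 to 17062427, minus strand). It was at 11.7, 12.4, 16.0 and 6.84 CPM in wild-type, 15.4, 28.8, 13.2 and 36.8 CPM in heterozygous and 20.8, 30.5, 25.5 and 28.2 CPM in homozygous libraries. All homozygous libraries lay above all wild-type ones, as for 11.8% of all genes tested, while the heterozygous libraries spread over both ranges. The rise was 2.27-fold, from 11.7 ± 3.78 to 26.3 ± 4.18 CPM (SD, n = 4; log2 1.18, SE 0.315, adjusted p = 0.0084). It stayed called without any single library (0.97 to 1.39), without homozygous replicates 4 and 5 (1.18, adjusted p = 0.0181), with a GC offset (1.32, 0.0026) and with the GC correlation as a covariate (1.48, 0.0321). Hif3a shares its locus with the annotated gene 4833404L02Rik on the other strand. Nr3c2, Fkbp5 and Cdkn1a also overlap annotated genes on the other strand, and whether the counts used strand is not given here, so reads of such pairs cannot be told apart.

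Zbtb16 encodes PLZF, a zinc finger repressor that glucocorticoids induce in many cell types (chromosome 9, 48654297 to 48836222, minus strand). Its levels were 15.4, 15.2, 24.0 and 11.2 CPM in wild-type, 15.4, 16.7, 20.5 and 15.1 CPM in heterozygous and 26.2, 31.4, 26.4 and 27.1 CPM in homozygous libraries. The homozygous libraries lay close together and above all 8 others. Homozygous ranges above the wild-type one were found for 11.8% of all genes tested, and above the heterozygous one for 5%. The rise was 1.70-fold, from 16.5 ± 5.42 to 27.8 ± 2.48 CPM (SD, n = 4; log2 0.77, SE 0.234, adjusted p = 0.0185). It was larger with a GC offset (0.99, adjusted p = 0.0027). Leaving out wild-type replicate 5 ended the call (0.61, adjusted p = 0.0741), as did a fit with library totals in place of TMM factors (0.60, 0.0609) and with the GC correlation as a covariate (0.89, 0.129).

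Tsc22d3, whose product GILZ is an anti-inflammatory mediator of glucocorticoids (chromosome X, 140539528 to 140600659, minus strand), was at 21.3, 9.51, 13.1 and 11.2 CPM in wild-type, 24.4, 18.4, 8.79 and 26.3 CPM in heterozygous and 20.8, 19.3, 32.1 and 30.5 CPM in homozygous libraries. Wild-type replicate 1 lay within the homozygous range, and homozygous replicates 4 and 5 were the highest of all. The rise was 1.79-fold, from 13.8 ± 5.21 to 25.7 ± 6.56 CPM (SD, n = 4; log2 0.84, SE 0.309, adjusted p = 0.0478). It was the least stable of the 6 calls, lost in 13 of 23 other settings. Without homozygous replicates 4 and 5 it was 0.53 (adjusted p = 0.321), and with the GC correlation as a covariate 0.33 (0.723). Leaving out 1 library ended it for wild-type replicates 2, 3 and 5, heterozygous replicates 1 and 2 and homozygous replicates 4 and 5 (0.70 to 0.85, adjusted p = 0.0511 to 0.138).

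Sgk1, the serum- and glucocorticoid-regulated kinase of the promoter shown above (chromosome 10, 21882184 to 21999903, plus strand), had another order of groups. It was at 27.9, 33.3, 32.8 and 55.9 CPM in wild-type, 56.6, 84.3, 56.4 and 82.0 CPM in heterozygous and 76.4, 41.3, 42.0 and 35.0 CPM in homozygous libraries. Every heterozygous library was above every wild-type one, as for 4.77% of all genes tested, by a small margin over wild-type replicate 5. In 3 of the 4 homozygous libraries it fell within the wild-type range. On average it was at 37.5 ± 12.6, 69.8 ± 15.4 and 48.7 ± 18.8 CPM (SD, n = 4 each). Between homozygous and wild-type mice the change was 0.38 on the log2 scale (SE 0.247, adjusted p = 0.278). It was 0.071 without homozygous replicate 1 (adjusted p = 0.852) and 0.66 without wild-type replicate 5 (0.0671), the lowest and highest values with 1 library left out.

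Cdkn1a, which encodes the cell cycle inhibitor p21 (chromosome 17, 29090976 to 29100727, plus strand), was at 4.40, 2.85, 10.2 and 6.84 CPM in wild-type, 9.0, 7.92, 4.39 and 10.5 CPM in heterozygous and 10.1, 12.1, 11.5 and 6.77 CPM in homozygous libraries. The ranges overlapped, with 3 to 27 counts per library. Its log2 fold change in homozygous mice was 0.74 (SE 0.370, adjusted p = 0.150), and it was called in 1 of 23 other settings, the GC offset (0.99, adjusted p = 0.0495).

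Crh (chromosome 3, 19693401 to 19695396, minus strand) had 35 counts in all. It had 2, 1, 0 and 2 counts in wild-type, 3, 4, 5 and 8 in heterozygous and 4, 2, 1 and 3 in homozygous libraries. Every heterozygous library had more counts than any wild-type library, though most values lay near 3 counts. CPM ranges apart in this direction were found for 4.77% of the genes tested, among which Crh was not. In a fit with no filter the heterozygous to wild-type log2 fold change was 1.63 (SE 0.760, adjusted p = 0.374) and the homozygous to wild-type one 0.90 (SE 0.853, adjusted p = 0.549). A change of Crh was not detectable at this depth.

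**Figure D3:**
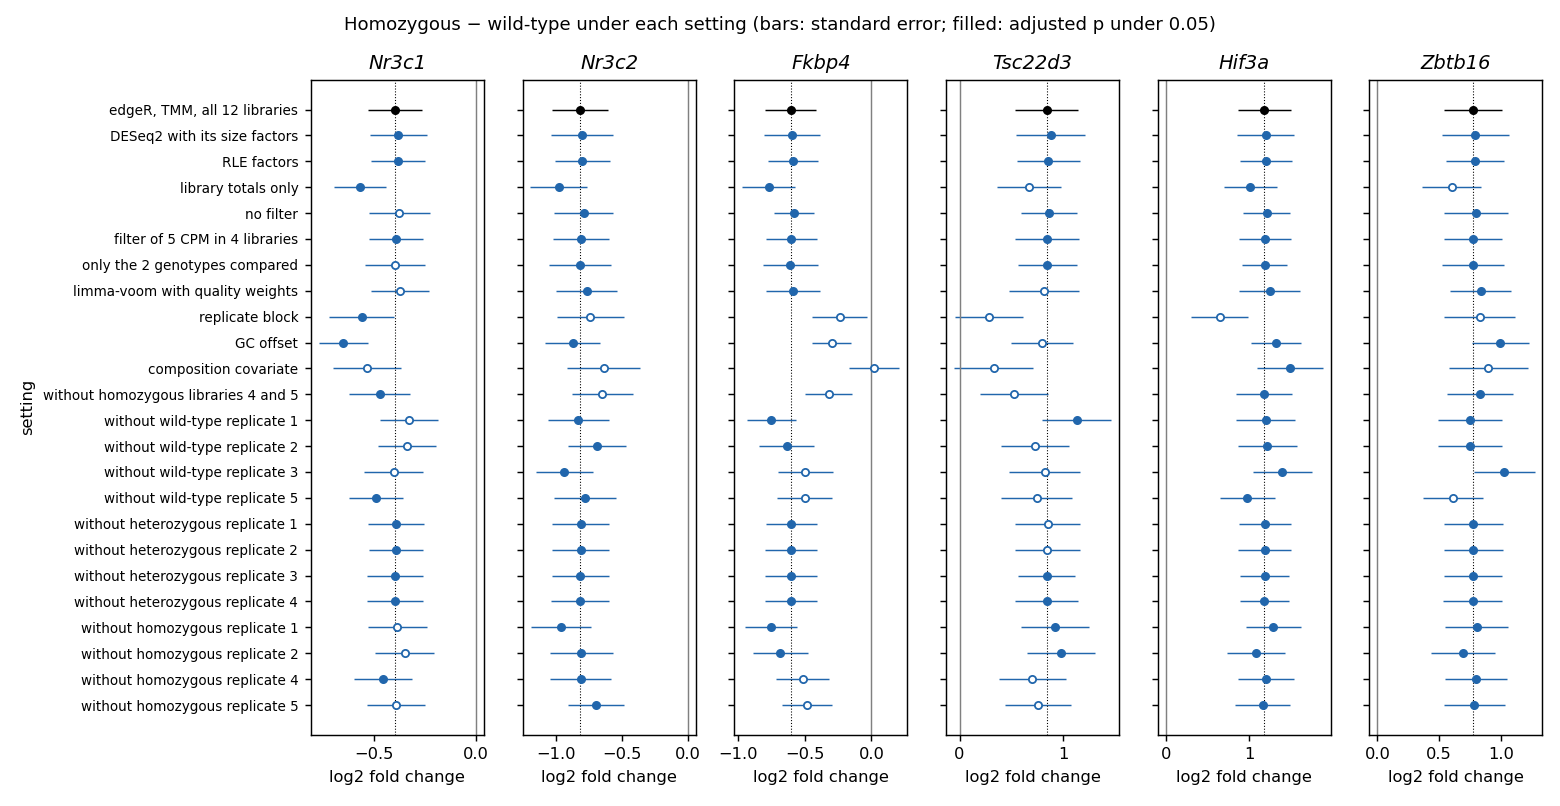
Log2 fold change, homozygous minus wild-type (horizontal axes), of the 6 called members in the fit of all 12 libraries (top) and in 23 other settings (vertical axis), with bars of 1 SE; filled points have an adjusted p under 0.05. Hif3a stays filled in all but the replicate block, Nr3c2 and Zbtb16 lose a few, and Tsc22d3 is open in 13.

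In heterozygous mice no member was called against wild-type by edgeR, where 0.596% of all genes were. At an unadjusted p of 0.05, a looser limit, 2 passed, Sgk1 and Hif3a. They ranked 123 and 248 by p among the 10737 genes tested. Tsc22d3, the member of next smallest p (edgeR, unadjusted p = 0.125), ranked 2735. The share of all genes under the looser limit is not given here. Sgk1 was 1.85-fold higher in heterozygous mice (log2 0.89, SE 0.237, unadjusted p = 0.0010, adjusted p = 0.0889), and its 4 libraries lay above all wild-type libraries, as did those of 4.77% of all genes. DESeq2 (0.90, adjusted p = 0.0231) and limma-voom (0.85, 0.0279) called it, and so did edgeR without wild-type replicate 5 (1.17, 0.0194) and without homozygous replicate 1 (0.89, 0.0366); the adjusted p ran from 0.0006 to 0.124 over 10 other settings. Hif3a was 2.06-fold higher (log2 1.04, SE 0.312, unadjusted p = 0.0028, adjusted p = 0.121), with heterozygous replicates 2 and 4 at 28.8 and 36.8 CPM and replicates 1 and 3 within the wild-type range. It was called with no filter (1.06, adjusted p = 0.0132), with only the 2 genotypes fitted (1.05, 0.0444) and with the GC correlation as a covariate (1.12, 0.0464). DESeq2 and limma-voom each called 1 member. DESeq2 gave no adjusted p for Hif3a (log2 1.04, SE 0.339), Nr3c2, Zbtb16, Fkbp5, Cdkn1a and Tsc22d3, so it made no call on them. The receptors and cochaperones had small values: Nr3c1 −0.082, Nr3c2 −0.13, Fkbp4 −0.12 and Fkbp5 −0.011 (log2, SE 0.129 to 0.240). The same holds for Zbtb16 at 0.041 (SE 0.244), while Tsc22d3 at 0.49 (SE 0.310) and Cdkn1a at 0.36 (SE 0.376) had wide errors.

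Between homozygous and heterozygous mice no member was called by edgeR either, where 2.2% of all genes were. At an unadjusted p of 0.05, 5 passed, a looser limit than that of the 2.2%. The largest p of the 5, that of Sgk1 (edgeR, unadjusted p = 0.0358), ranked 1840 among the 10737 genes tested. DESeq2 called 1, Nr3c2, and limma-voom 0. The 2 receptors were lower in homozygous mice in every library, Nr3c2 by −0.69 (SE 0.209, adjusted p = 0.0790) and Nr3c1 by −0.32 (SE 0.131, adjusted p = 0.176), and Zbtb16 was higher in every library (0.73, SE 0.226, adjusted p = 0.0843). Such ranges were found for 4.48% of all genes in the lower and 5% in the higher direction. Fkbp4 was at −0.49 (SE 0.189, adjusted p = 0.154) and Sgk1 at −0.51 (SE 0.230, adjusted p = 0.208). Homozygous replicate 1 decided 3 of these: without it Nr3c2 (−0.83, adjusted p = 0.0290), Fkbp4 (−0.64, 0.0492) and Sgk1 (−0.82, 0.0288) were called. Hif3a, at 0.14 (SE 0.275, adjusted p = 0.821), had nearly the same level in both mutant groups.

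A straight line on the number of mutant Wfs1 copies called the same 6 members, at a background of 25.7% of all genes. Per copy, the log2 change was −0.40 for Nr3c2 (SE 0.109), −0.30 for Fkbp4 (SE 0.0968) and −0.20 for Nr3c1 (SE 0.0665). It was 0.55 for Hif3a (SE 0.162), 0.42 for Tsc22d3 (SE 0.151) and 0.40 for Zbtb16 (SE 0.121). A line does not describe every member equally: the heterozygous mean of Hif3a (23.5 ± 11.2 CPM, SD, n = 4) was near the homozygous one, while those of Nr3c2 (37.1 ± 3.17 CPM) and Zbtb16 (16.9 ± 2.48 CPM) were near the wild-type ones. Comparisons with wild-type share the wild-type libraries, so agreement between them is not independent.

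**Figure D4:**
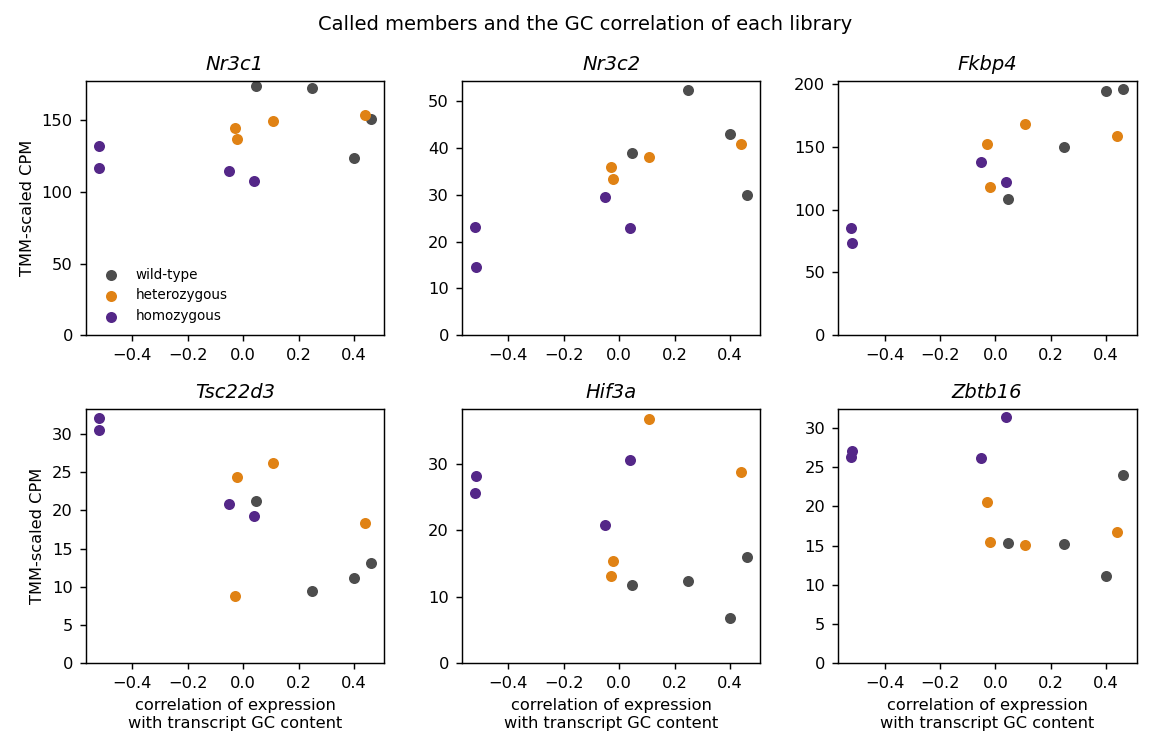
TMM-scaled CPM (vertical axes, from 0) of the 6 called members against the GC correlation of each library (horizontal axes: correlation across genes of a library's deviation in log2 CPM with transcript GC share), 1 point per library. The homozygous points at about −0.52 hold the lowest values of Fkbp4 and the highest of Tsc22d3, while Zbtb16 is similar in all 4 homozygous libraries.

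The GC correlation moved with genotype and with several members. Homozygous replicates 4 and 5 (−0.520 and −0.519) had Fkbp4 at 85.7 and 73.4 CPM and Tsc22d3 at 32.1 and 30.5 CPM, and homozygous replicates 1 and 2 (−0.0526 and 0.0390) had Fkbp4 at 138 and 122 CPM and Tsc22d3 at 20.8 and 19.3 CPM. Without the 2 former libraries 3 of the 6 calls remained, those of Nr3c1 (−0.47, adjusted p = 0.0318), Hif3a (1.18, 0.0181) and Zbtb16 (0.83, 0.0377). Nr3c1 has the lowest GC share of the members, 42.2%, and its fall was larger with a GC offset (−0.65, adjusted p = 0.0003). The part of base composition in these changes was not tested beyond these fits.

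Per kilobase of annotated exon, the scale on which genes can be compared, Fkbp4 was the most abundant member in wild-type mice at 57.9 ± 14.9 CPM per kb, followed by Nr3c1 at 20.2 ± 3.05. Sgk1 (7.64 ± 2.56) and Nr3c2 (6.33 ± 1.44) came next and did not differ beyond their spread. Tsc22d3 (3.17 ± 1.20) and Zbtb16 (3.12 ± 1.03) were level with each other, as were Fkbp5 (1.77 ± 0.299), Hif3a (1.75 ± 0.563) and Cdkn1a (1.71 ± 0.902), and Crh was lowest at 0.693 ± 0.489 (SD, n = 4 each). The level of Nr3c1 was thus above that of Nr3c2 by more than their spread in wild-type, and also in homozygous mice (15.3 ± 1.34 against 3.48 ± 0.939 CPM per kb). In homozygous mice Tsc22d3 (5.91 ± 1.51), Zbtb16 (5.25 ± 0.469) and Hif3a (3.92 ± 0.624) had means above that of Nr3c2, which was above all 3 in wild-type mice. Neither Tsc22d3 nor Hif3a differed from Nr3c2 beyond the spread there. These levels divide by all annotated exons of a gene, whichever transcripts were present.

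Within genotypes, after the genotype mean was taken out, the 36 pairs of tested members were compared over the 12 libraries (two-sided permutation test within genotypes, 100000 draws). No pair passed an adjusted p of 0.05, and 2 had an unadjusted p under 0.05 for Pearson's r, both positive. The cochaperones Fkbp4 and Fkbp5 had Pearson r = 0.85 (permutation p = 0.0018, adjusted p = 0.0659) and Spearman rho = 0.78 (permutation p = 0.0095, adjusted p = 0.148), with r = 0.84 without the 2 libraries farthest from the median. In wild-type libraries both cochaperones ran in the order of the GC correlation. In homozygous libraries both were lowest in replicates 4 and 5, those of lowest GC correlation, and in heterozygous libraries neither ran in its order. The part of base composition in this pair was not tested. Fkbp4 and Sgk1 had r = 0.73 (permutation p = 0.0195, adjusted p = 0.351). The receptors Nr3c1 and Nr3c2 had r = 0.14 (permutation p = 0.731, adjusted p = 0.822).

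The genes most like each member over the 12 libraries, genotype differences included, were found by Pearson's r of log2 CPM among 8762 genes with a mean of at least 10 CPM (8763 for Cdkn1a, which is itself under that mean). They share libraries, depth and base composition with the member and were chosen for their r, so no test applies. For Fkbp4 they were Rab11fip3, Pnmal2 and Rhot2 (0.95 to 0.96), for Nr3c2 Pcdha4-g, Cpt1c and Znf512b (0.93 to 0.95), and for Nr3c1 Dgat1 (0.94), Rffl and Lrp4. For Tsc22d3 they were Lztfl1 (0.95), Snhg4 and Eif5, and for Sgk1 Jund (0.92), a subunit of the transcription factor AP-1, Tmem222 and Zkscan16. Cdkn1a was most like Sart3, Rbak and Zbed6 (0.84 to 0.88), Zbtb16 most like Trit1, Ankib1 and Rnf10 (0.85 to 0.86), Hif3a most like Zfp35 (0.85), Srrm2 and Ociad2, and Fkbp5 most like Unc119b (0.82), Aarsd1 and Lingo3. No member was among the 3 genes most like another.

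The chaperone complex that carries the receptors had 9 of 19 tested genes called in homozygous mice, 6 higher and 3 lower (median log2 fold change 0.15), beside 13.7% higher and 11.6% lower of all genes. Hspa4 (1.16, SE 0.150, adjusted p = 1.41e-05), an HSP70-family exchange factor, rose, as did its relative Hsph1 (0.96, SE 0.143) and the inducible HSP90 gene Hsp90aa1 (0.91, SE 0.157). Stub1, which encodes the ubiquitin ligase CHIP, fell (−1.15, SE 0.231, adjusted p = 0.0010). With the GC correlation as a covariate the calls of Hsp90aa1 (0.62, adjusted p = 0.0709) and Stub1 (−0.76, 0.157) ended. In that fit 3 of the 19 genes were called, beside 319 of all 10737 genes. Fkbp4 works with this complex and is counted among the members, not in this list. In heterozygous mice edgeR called 0 of the 19, with 7 under an unadjusted p of 0.05, 3 called by DESeq2 and 5 by limma-voom. The share of all genes under that unadjusted p is not given here.

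Of 17 other glucocorticoid-responsive genes tested, 3 rose and 0 fell in homozygous mice, beside 13.7% higher and 11.6% lower of all genes. The count was 1 without wild-type replicate 1, 6 without homozygous replicate 4 and 2 to 4 without any other library. The list had a median log2 fold change of 0.39, against −0.027 for all genes. Of its 17 genes 14 had a positive value, beside 5141 of all 10737. Klf9, a zinc finger transcription factor induced by glucocorticoid and thyroid hormone, had the smallest p, and its wild-type level of 108 ± 11.5 CPM compared with 158 ± 24.5 CPM for heterozygotes and 308 ± 67.3 CPM for homozygotes (SD, n = 4; log2 1.50, SE 0.157, adjusted p = 1.48e-06), and stayed called in all 23 other settings. The lipid droplet gene Plin4 (1.41, SE 0.476, adjusted p = 0.0325) was not called without wild-type replicate 1 or 2 or homozygous replicate 2 or 5 (1.09 to 1.40, adjusted p = 0.0505 to 0.120). The pyruvate dehydrogenase kinase Pdk4 (0.97, SE 0.340, adjusted p = 0.0387) was not called in 11 of 23 settings, among them the fits without wild-type replicate 1, 2 or 5 or homozygous replicate 1 or 5 (0.80 to 0.98, adjusted p = 0.0734 to 0.110). In heterozygous mice edgeR called 0 of the 17, with 4 under an unadjusted p of 0.05 and 1 called by DESeq2 and by limma-voom. For that unadjusted p the share of all genes is not given here.

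Genes of mineralocorticoid action and sodium transport had 6 of 10 called in homozygous mice, 3 higher and 3 lower (median 0.24), beside 25.4% of all genes. DESeq2 called 5 of the 10 and limma-voom 3, and leaving out 1 library gave 3 to 5, with 3 without wild-type replicates 2 and 3 and homozygous replicate 5, and 4 without heterozygous replicates 1 and 4 and homozygous replicates 2 and 4, each in turn. With the GC correlation as a covariate 2 were called, beside 319 of all 10737 genes. The kinase Wnk1 (0.59, SE 0.103), the sodium pump subunit Atp1b1 (0.58, SE 0.102) and Ndrg2 (0.46, SE 0.107) rose, of which Ndrg2 was not called with the GC correlation as a covariate (0.36, adjusted p = 0.151). Scnn1g, a subunit of the epithelial sodium channel, had no count. Coregulators of the receptors gave 2 calls among 18, Ncor1 higher (0.36, SE 0.112, adjusted p = 0.0199) and Carm1 lower (−0.62, SE 0.182, adjusted p = 0.0158), with a median of −0.0011. Leaving out 1 library gave 1 to 4 calls in this list. Ncor1 and Carm1 were each lost in 6 of 23 settings, Ncor1 without wild-type replicate 3 (0.33, adjusted p = 0.0703) or homozygous replicate 4 (0.30, 0.0802), and Carm1 without wild-type replicate 5 (−0.49, 0.0740) or homozygous replicate 4 (−0.53, 0.0567).

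Among 6 tested stress axis peptides and receptors 1 fell and 0 rose, beside 11.6% lower and 13.7% higher of all genes. The call was Pomc (−1.12, SE 0.390, adjusted p = 0.0367), the precursor of the melanocortins and of corticotropin, and it was lost in 10 of 23 settings, among them those without wild-type replicate 3 or 5 or homozygous replicate 2, 4 or 5 (−1.14 to −0.87, adjusted p = 0.0562 to 0.153). Pituitary markers Gh, Prl and Pou1f1 were at 0 in all libraries, and the 8 pituitary markers summed to at most 9.89 CPM. Of 3 tested genes of corticosteroid metabolism and transport edgeR called 0 in homozygous mice, beside 25.4% of all genes. With 1 library left out it called 0 to 1 of them. With all libraries 1 was under an unadjusted p of 0.05, and DESeq2 and limma-voom called 0. The adrenal enzymes Cyp11b2 and Cyp21a1 and the binding globulin Serpina6 had no count in any library.

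**Figure D5:**
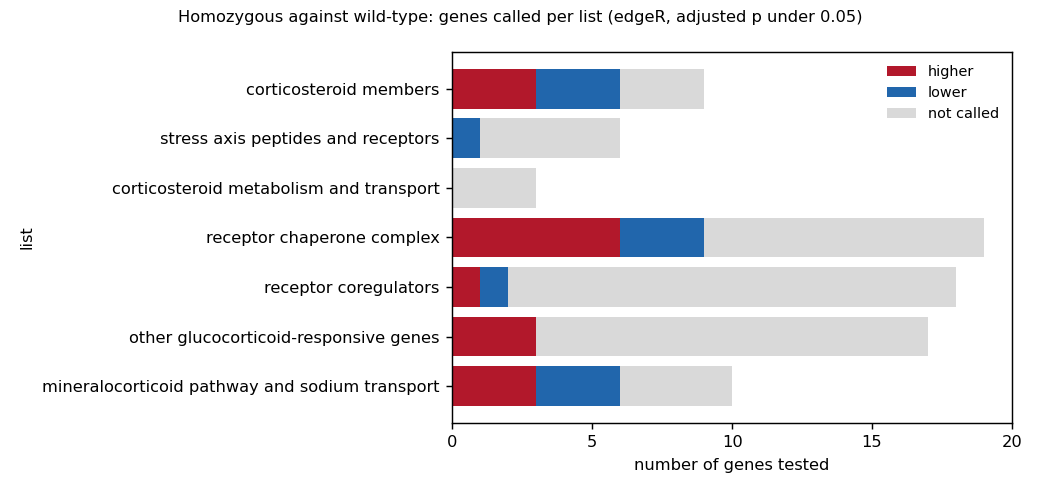
Number of tested genes (horizontal axis) in the members and in 6 lists of the pathway that were higher, lower or not called in homozygous against wild-type mice (edgeR, adjusted p under 0.05). The members (3 higher, 3 lower of 9) and the chaperone complex (6 higher, 3 lower of 19) hold calls in both directions, and the other glucocorticoid-responsive genes hold 3 higher of 17, beside 13.7% higher and 11.6% lower of all genes.

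Markers of the cell types in the tissue were read in the same comparison, where 25.4% of all genes were called in homozygous mice. Of 10 neuronal markers 5 were higher and 1 lower, with sums of 5079.6 to 6400.0 CPM in wild-type and 7232 to 9239.7 CPM in homozygous libraries. Of 10 astrocyte markers 2 were higher and 3 lower (4666 to 5797 against 5433 to 6884 CPM), and of 12 oligodendrocyte markers 3 were higher and 2 lower (3608 to 4494 against 2565 to 4074 CPM). Of 9 tested markers of endothelium and pericytes 2 were lower (sums over 10 markers 215 to 255 against 185 to 206 CPM). Of 8 microglial markers edgeR called 0, with 0 under an unadjusted p of 0.05 and 0 called by DESeq2 and limma-voom (sums over 10 markers 307 to 353 against 310.5 to 367 CPM). None of these markers was at 0 in all libraries. Thalamic markers had 3 of 6 higher and sums of 631 to 823 against 822 to 1149 CPM. Choroid plexus markers had 0 of 2 called by edgeR, DESeq2 or limma-voom and 0 under an unadjusted p of 0.05, and telencephalic markers 0 of 6 by edgeR, 2 under an unadjusted p of 0.05 and 1 each by DESeq2 and limma-voom. The part of these marker levels in the changes of the members was not tested.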

How the data were processed

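Hypothalamus RNA of 12 mice was sequenced. Per the labels' protocols, 50 ng of total RNA was amplified with the Ovation RNA-Seq System V2 and read on a SOLiD 5500xl as pairs of 75 and 35 bp. The authors deposited a table of raw counts per gene symbol (24020 genes, 6133 with no count). The submitters' processing notes name mm10 as the genome. Aligner, counter, annotation and strand are not given in the sources. Columns were tied to samples through genotype and replicate number. Homozygous replicate 5 is a column without a sample of that number, placed by its genotype, and the growth protocol speaks of 5 hypothalamus animals, which the 4 per genotype analysed here do not match. P-values measure the spread between these mice.

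Tests were run in edgeR 4.0.16 under R 4.3.3 (TMM factors 0.908 to 1.08, default filter on low counts, 10737 genes, 1 fit of all 12 libraries, common biological coefficient of variation 0.148). The SE of a log2 fold change is its size over the root of F. In sentences that do not name another tool, adjusted p are edgeR's with Benjamini-Hochberg adjustment over all genes tested. DESeq2 1.42.0, limma 3.58.1 (voom with sample quality weights) and other settings were alternatives, and the code was tested on simulated data. Coordinates, exon length and GC share come from GENCODE M21, where 20717 symbols had a match, 1895 more matched through a former symbol and 1408 had none. The GC offset is a curve of log2 CPM deviation on GC share, fitted per library.

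The members and lists were chosen with earlier results of these data known. Named genes are all members, Wfs1, Rn45s, up to 4 called genes per pathway list by smallest p, and the 3 genes most like each member with predicted models passed over. The result of a gene from the lists is not reported here.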

Additional observations from a re-analysis of the deposited data

Results flagged for a closer look

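For the 10 members in each of the 3 genotypes, 30 groups of 4 libraries, 2 held a library far from the other 3, with a gap to its nearest neighbour past Dixon's 95% critical share of the range. Chance flags about 5 in 100 such groups. Fkbp5 was at 11.6 CPM in heterozygous replicate 1, against 17.7 to 18.8 CPM in the other heterozygous libraries (gap 0.854 of the range). Sgk1 was at 76.4 CPM in homozygous replicate 1, against 35.0 to 42.0 CPM in the other homozygous libraries (gap 0.831 of the range). Between homozygous and heterozygous mice Sgk1 was at log2 −0.51 with all libraries (adjusted p = 0.208 in edgeR). Without that library it was at −0.82 (adjusted p = 0.0288 in edgeR). The library was picked for its Sgk1 value, so the p without it is not independent of that choice.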

How the results depend on the processing

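Counts of genes and members called are given first. Between homozygous and wild-type mice, 2723 genes and 6 members were called, 1344 and 3 without homozygous replicates 4 and 5, 319 and 1 with the GC correlation as a covariate, and 1856 to 3076 genes and 3 to 6 members when 1 library was left out (3 without wild-type replicate 3, wild-type replicate 5 or homozygous replicate 5). Library totals in place of TMM factors moved the median change of all genes from −0.027 to −0.19, and the split from 1475 higher and 1248 lower to 919 and 2199. Between heterozygous and wild-type mice, 64 genes and 0 members were called. This became 222 and 1 with DESeq2, 35 genes with library totals, 280 and 2 with no filter, 382 and 2 with only those genotypes fitted, 394 and 1 with limma-voom, 153 and 1 with a GC offset, 176 and 2 with the GC covariate, and 3 to 218 genes and 0 to 1 members with 1 library left out (3 genes without wild-type replicates 2 and 3 and heterozygous replicates 3 and 4, each in turn, 218 without heterozygous replicate 2). Between homozygous and heterozygous mice, 236 and 0 became 429 and 1 with DESeq2, 138 genes with library totals, 727 and 2 with no filter, 44 genes with only those genotypes, 79 with limma-voom, 2 members with a GC offset, 2 genes with the GC covariate, 1 gene without homozygous replicates 4 and 5, and 6 to 867 genes and 0 to 3 members with 1 library left out (6 genes without heterozygous replicate 2, 867 without homozygous replicate 2). For the slope, 2757 and 6 became 1582 and 3 without homozygous replicates 4 and 5, 402 and 1 with the GC covariate, and 1936 to 2942 genes and 2 to 6 members with 1 library left out (2 without wild-type replicate 5). The causes of these shifts were not tested.

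Replicate numbers do not pair these mice by the labels, and deviations of same-numbered libraries correlated at −0.265 to 0.337 (8 pairs) against −0.258 to 0.243 for other pairs (40). With the replicate block, 1308 genes and 1 member (Nr3c1, −0.56) were called between homozygous and wild-type mice, 163 and 1 between heterozygous and wild-type, 33 genes between homozygous and heterozygous, and 1269 and 1 for the slope. Under the block Fkbp4 was −0.24, Hif3a 0.65 (adjusted p = 0.222 in edgeR), Nr3c2 −0.74, Zbtb16 0.83 and Tsc22d3 0.29 in homozygous against wild-type mice. In heterozygous against wild-type mice Hif3a was 0.58 and the block turned Fkbp4 to 0.045, Zbtb16 to −0.039 and Fkbp5 to 0.039.

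Of 810 member values under alternatives, 680 kept direction and call, 75 lost and 22 gained a call and 33 changed sign. The 680 include values to which DESeq2 gave no adjusted p, such as that of Hif3a in heterozygous against wild-type mice. Library totals turned Fkbp5 to −0.15 (homozygous against wild-type), −0.075 (against heterozygous) and −0.075 (slope), and Zbtb16 to −0.024 (heterozygous against wild-type). The GC covariate turned Fkbp4 to 0.021 (homozygous against wild-type), 0.022 (slope) and 0.091 (heterozygous against wild-type), Fkbp5 to 0.11 (heterozygous against wild-type) and Tsc22d3 to −0.036 (homozygous against heterozygous). In heterozygous against wild-type mice Fkbp5 was 0.0099 with no filter and 0.022 with a GC offset. With 1 library left out, Fkbp5 ran from −0.093 to 0.13 in homozygous and −0.089 to 0.13 in heterozygous against wild-type mice, −0.10 to 0.11 between the mutants and −0.044 to 0.063 for the slope, Hif3a from −0.037 to 0.40 between the mutants, and, in heterozygous against wild-type mice, Nr3c2 from −0.25 to 0.0020 and Zbtb16 from −0.12 to 0.30. With a prior count of 0.5 in place of 2, again 0 of the 36 pairs of members passed within genotypes. Members with few counts (Cdkn1a 151 and Crh 35 in all) limit what can be detected.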
